A study of Mus musculus with 12 samples.

Results

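The transcriptome of mouse chondrocyte pellets after 3 weeks of culture is described here from the 3 RNA-seq libraries labelled Week 3, out of 12 libraries in the series. They were taken by their label alone. Every value below is a level within that group, no other time point was compared, and with 1 group no test was made. The cells came from the cartilage of the femoral head and tibial plateaus of C57BL/6J mice aged 5 to 6 days. They were expanded as a monolayer in DMEM/F12 with foetal bovine serum, penicillin and streptomycin, and then kept as pellets in that medium with ascorbic acid and ITS added. The labels name no gene alteration and no other agent. The labels do not say how many pups were pooled or whether replicates were separate isolations, so the SD between the 3 libraries may be partly technical.

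Chondrocytes build cartilage by secreting type II collagen and the large proteoglycan aggrecan. In the growth plate they then enlarge, a state known as hypertrophy, switch on type X collagen and the phosphatase that frees phosphate for mineral, and come to share much of their gene programme with bone-forming osteoblasts. Pellet culture brings isolated chondrocytes back into a rounded, crowded state in which they lay down matrix, and is widely used to drive this change in a dish. A secretory cell of this kind needs an endoplasmic reticulum (ER) that folds, hydroxylates and exports large proteins.

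Levels are given on 2 scales. CPM, counts per 1000000, divide the count of a gene by the library total and say how much of the sequencing a gene took, so a long transcript gathers more. TPM, transcripts per 1000000, also divide by the exonic length of the transcript. Levels of different genes can be compared only in TPM or in shares per length, and ranks by counts say only how much of the sequencing each gene took. Values for replicates 1, 2 and 3 are given in that order, followed by mean ± SD (n = 3).

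The libraries held 15988800, 19775300 and 17354600 counts over 23575 genes. Of these genes, 16401 had a count in every library, 13519 averaged at least 1 CPM, 1938 at least 100 CPM and 77 at least 1000 CPM. A count of 0 allows a level of up to 0.188, 0.152 and 0.173 CPM in the 3 libraries, and this floor, like any interval on reads without molecular tags, covers counting error only. Replicate 2 stood apart from the other libraries. Among 9404 genes of at least 10 CPM, 121 differed by more than 1.5-fold between replicates 1 and 2 and 124 between replicates 2 and 3, against 14 between replicates 1 and 3. The biological coefficient of variation that edgeR estimated was 7.81% over all 3 libraries and 3.75% without replicate 2. For some of the genes whose wide spread rests on that library, the mean is also given without it.

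Levels of 4 genes listed for hypertrophic chondrocytes and osteoblasts are given first. They were chosen with earlier results of these data known, so their levels are no check of the label. Ibsp (bone sialoprotein, chromosome 5, 104299287 to 104311472 of GRCm38.p6, forward strand) encodes an acidic glycoprotein of mineralising matrix. It had 9754, 11380 and 11912 CPM. Col10a1 (chromosome 10, 34389981 to 34397085, forward strand) encodes the collagen that marks hypertrophic cartilage, and it had 2748, 5258 and 3463 CPM. Alpl (chromosome 4, 137741731 to 137796384, reverse strand), tissue-nonspecific alkaline phosphatase, had 957, 1273 and 1099 CPM. Panx3 (chromosome 9, 37659902 to 37669222, reverse strand), a channel protein of prehypertrophic chondrocytes and osteoblasts, had 182, 220 and 184 CPM. All 4 genes were well above the counting floor in every library, and the genes that define cartilage itself were present beside them. The 13 listed cartilage genes, led by Col2a1, summed to 39417, 35442 and 35618 CPM. The 4 genes of hypertrophic chondrocytes and osteoblasts, called the hypertrophy list below, summed to 13642, 18132 and 16658 CPM. Ibsp alone made up 68.2% of the counts of these 4 genes. The cartilage sum was highest in replicate 1, and the hypertrophy sum was lowest there. Per length the cartilage list held 2.57, 2.29 and 2.33% of the total and the hypertrophy list 1.94, 2.52 and 2.38%. The hypertrophy list was thus the higher in replicates 2 and 3, and the ranges overlapped. Its level per length rested mostly on Ibsp, with 17408 TPM on average. Col10a1, Alpl and Panx3 had 3778, 1359 and 240 TPM.

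Promoter sequence is shown for the protein-coding gene with the most counts, Col1a2, and for the hypertrophy genes with the most counts, Ibsp and Col10a1. Each is the 250 bases before the RefSeq transcription start in GRCm38.p6, 5′ to 3′ on the gene's own strand, from chr6:4505368-4505617, chr5:104299037-104299286 and chr10:34389731-34389980. Capitals mark matches, on either strand, to the TATA box TATAAA, the CCAAT box CCAAT and the RUNX core TGTGGT.
Col1a2: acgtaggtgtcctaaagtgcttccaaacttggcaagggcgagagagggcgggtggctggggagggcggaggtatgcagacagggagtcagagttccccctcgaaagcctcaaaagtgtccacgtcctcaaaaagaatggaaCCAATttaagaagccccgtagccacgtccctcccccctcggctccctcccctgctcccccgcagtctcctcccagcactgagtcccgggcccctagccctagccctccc
Ibsp: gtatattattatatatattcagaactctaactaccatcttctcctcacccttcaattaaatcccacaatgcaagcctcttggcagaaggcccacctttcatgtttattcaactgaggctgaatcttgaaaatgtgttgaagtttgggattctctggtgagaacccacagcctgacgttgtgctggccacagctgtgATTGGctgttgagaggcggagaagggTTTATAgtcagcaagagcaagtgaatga
Col10a1: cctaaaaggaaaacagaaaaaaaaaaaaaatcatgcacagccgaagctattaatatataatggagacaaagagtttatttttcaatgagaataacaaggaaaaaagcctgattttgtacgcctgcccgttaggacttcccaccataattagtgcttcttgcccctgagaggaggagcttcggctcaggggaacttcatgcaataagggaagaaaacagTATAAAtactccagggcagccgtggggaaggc
Col10a1 carried TATAAA with its first base 32 bases before the start. The Ibsp window held the same letters inverted, 28 bases before the start, and an inverted CCAAT 54 bases before it. Col1a2 held a CCAAT 109 bases before the start and no TATAAA. The Col1a2 window was 62% G and C, against 43.6% for Ibsp and 41.6% for Col10a1.

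The same letters were counted in the full RefSeq windows of 300 bases (250 before and 50 after the start). Of the 200 genes with the highest mean CPM, 152 matched a window, and 15.1% of these held TATAAA on either strand. The share was 7.05% among 10259 genes of at least 1 CPM and 13.1% among all 17324 genes matched. CCAAT was found in 28.9%, 38.6% and 39.2% of the same sets, and TGTGGT in 7.24%, 12% and 14.7%. In the place where a TATA box usually lies, 45 to 15 bases before the start, TATAAA on the forward strand was found in 2 of the 152, Col10a1 and Vim. That is 1.32%, beside 1.34% of the genes of at least 1 CPM and 2.97% of all. Among 140 core matrix genes with a window, 8 held it there. The other 7 of them were Ccn1, Igfbp4, Postn, Chad, Ecm1, Slit2 and Bglap. A match describes letters only.

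Few genes held much of the sequencing. The 10 genes with the most counts took 14.2% ± 0.208 of all counts (SD, n = 3), the top 50 took 25.5% ± 0.245, the top 200 took 37.2% ± 0.177 and the top 1000 took 58.2% ± 0.154. The point at which the summed counts reached 50% of the total came after 586 genes, or 3.17% of the 18503 genes with any count. The libraries drew nearly the same lists, since 188 genes were in the top 200 of every library taken alone. The edge of that list was not sharp. Cspg4 at rank 200 averaged 491.3 CPM and Chd4 at rank 201 averaged 490.4 CPM.

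**Figure D1:**
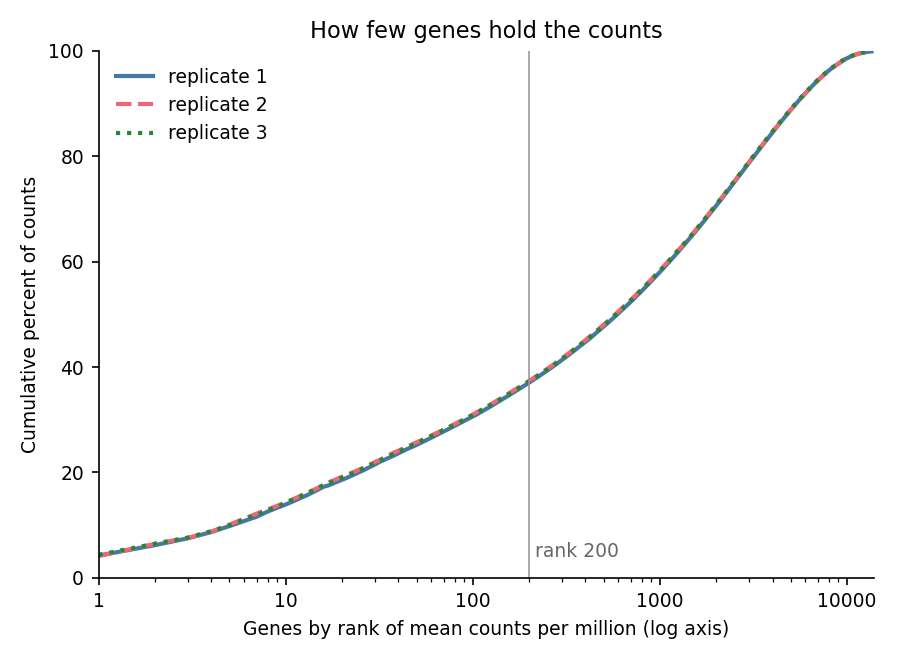
Cumulative percent of counts (vertical axis) over genes ordered by mean CPM (horizontal log axis, genes of at least 1 CPM), 1 line per Week 3 replicate; the grey line marks rank 200. The 3 lines lie on each other and pass 37.0, 37.4 and 37.2% at rank 200.

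A single noncoding RNA led the ranking. Malat1, a nuclear long noncoding RNA, had 42221, 41391 and 43747 CPM, which is 4.25% ± 0.119 of all counts. Genes for matrix filled most of the next places. Col1a2, the α2 chain of type I collagen, had 19791, 23218 and 20960 CPM. Col2a1, the type II collagen of cartilage, had 13069, 11307 and 11570 CPM. Replicate 2 was highest for Col1a2, and replicate 1 was highest for Col2a1. The adhesive glycoprotein fibronectin (Fn1) had 11746, 11764 and 12222 CPM. Sparc, a collagen-binding glycoprotein also known as osteonectin, had 11406, 13221 and 10959 CPM. Col2a1, Fn1, Sparc and Ibsp, at ranks 3 to 6, overlapped in their counts between libraries.

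**Figure D2:**
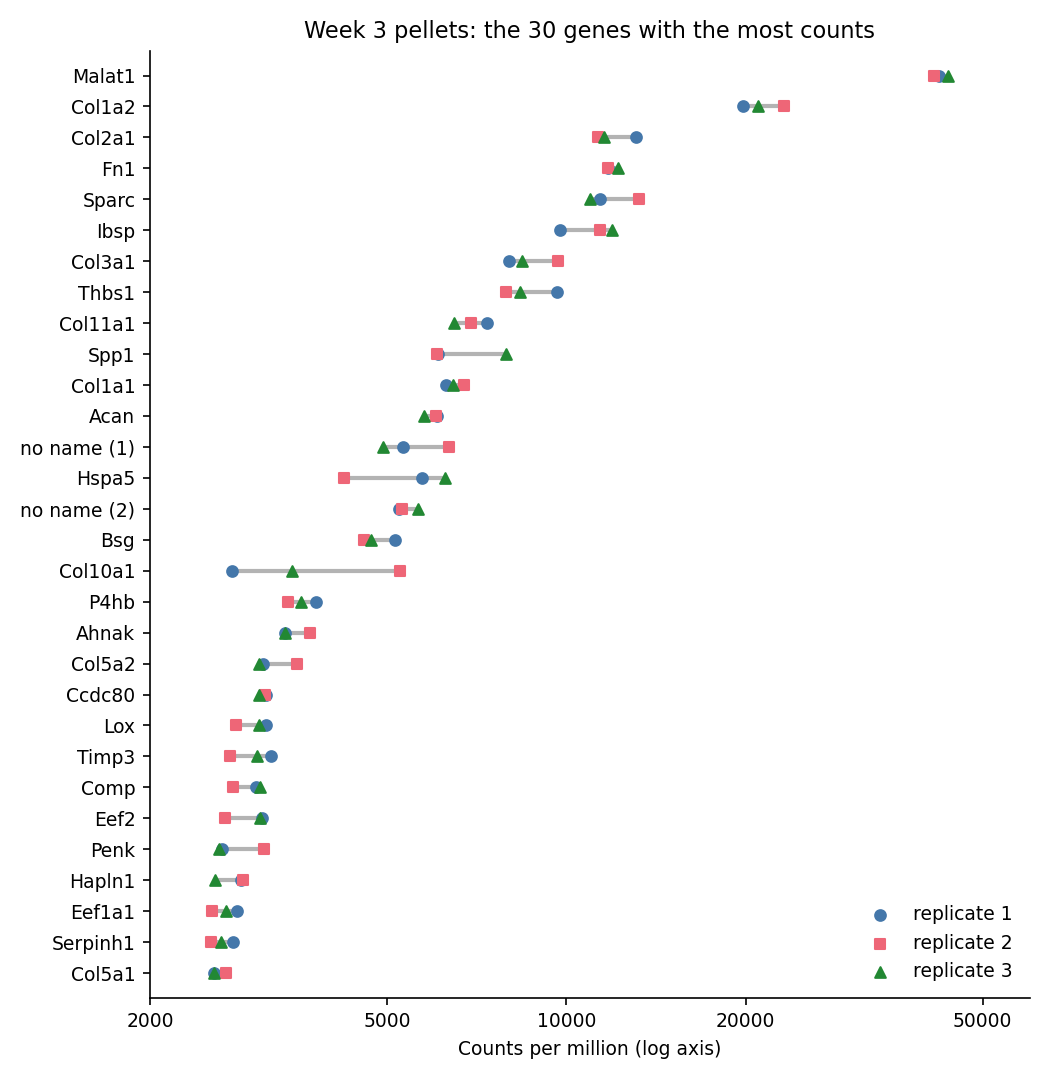
The 30 genes with the highest mean CPM in the Week 3 pellets, with the CPM of each replicate on a log axis and a grey bar from the lowest to the highest replicate. Malat1 lies apart at the top, Col10a1 spans 2748 to 5258 CPM, and 2 accessions that no table used here paired with a gene name are shown as no name.

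Per length, small secreted proteins moved up the order. The highest levels were those of Malat1 (18606, 18427 and 19304 TPM), Ibsp (15353, 18097 and 18776 TPM), Sparc (13290, 15563 and 12786 TPM), Spp1 (12353, 12428 and 16111 TPM) and Col1a2 (11663, 13822 and 12368 TPM). Spp1 encodes osteopontin, an acidic phosphoprotein of bone and hypertrophic cartilage. In this order each gene overlapped the next. Bsg (basigin, a membrane glycoprotein and partner of lactate transporters) followed at 8480 ± 518 TPM, Col2a1 at 7210 ± 544, the ER chaperone Hspa5 at 6384 ± 1207 and Penk at 6103 ± 641. Penk encodes proenkephalin, the precursor of opioid peptides. The protease inhibitor Cst3 reached 5521 ± 221 TPM and Mgp, the matrix Gla protein that inhibits mineral growth, reached 3970 ± 411, although they were only at ranks 52 and 110 by counts. Among the first 30 genes per length, 25 of 29 neighbours in the order overlapped, so the exact places are not fixed by 3 libraries. Mir675, Rpph1 and Rmrp also appear among those 30, but they are short RNAs for which a division by length is unreliable. The transcript of Mir675 averaged 279 CPM.

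Matrix was the largest group named. Collagens, proteoglycans and glycoproteins of the matrix, 247 genes in all, took 17.0%, 17.8% and 17.0% of counts, or 17.3% ± 0.487. With matrix enzymes and their inhibitors and with secreted signalling proteins, the secreted share was 20.2%, 21.1% and 20.3%, or 20.5% ± 0.517. Per length it was 18.6% ± 0.546. A small part of the genome carried this, since 451 of the 626 secreted genes reached 1 CPM but 3 of them, led by Col1a2, made up 22% of the secreted counts. All class shares cover only named genes that are in the lists. Secreted genes outside the lists, such as Ccdc80 and Chil1 (3100 and 348 CPM on average), are left out. Accessions without a gene name held 2.13, 2.23 and 2.15% of counts, and 2 of them averaged 5536 and 5392 CPM. Any matrix gene among them is missing from these shares.

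The 43 collagen genes with a name took 7.52%, 8.14% and 7.45% of counts. Replicate 2 was the highest library for 20 of the 30 collagen genes of at least 10 CPM, beside 34.6% (3256) of all 9404 genes of that level. The 11 fibrillar collagens, which form the rope-like fibrils, held most of it at 6.32% ± 0.241. Type I collagen is built from α1 and α2 chains, and the level of Col1a2 per length was 3.57, 3.92 and 3.69 times that of Col1a1 (3379 ± 133 TPM). Col3a1, a fibrillar collagen of soft connective tissue, had 8029, 9685 and 8416 CPM, or 4837 ± 509 TPM. Cartilage fibrils also contain type XI collagen, and Col11a1 had 2777 ± 175 TPM. The TPM of Col2a1 was 2.66, 2.45 and 2.68 times that of Col11a1. Col1a2 stood above Col2a1 per length in every library, by 1.49, 2.02 and 1.78 times. The other fibril chains Col5a2 and Col5a1 had 1507 ± 130 and 957 ± 32.4 TPM.

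Type IX collagen coats the type II fibril. Its genes Col9a1, Col9a2 and Col9a3 differed in level in every library, with 2013, 1018 and 388 TPM on average. Col9a1 was 1.99, 1.97 and 1.97 times Col9a2 per length, the steadiest of the 14 ratios between genes that were computed. Type VI collagen, which surrounds the cell in a pericellular basket, was led by Col6a1 at 1497 TPM, and the ratio of Col6a2 to Col6a3 per length was 1.13, 0.980 and 1.06. Col10a1 had the widest spread of any gene above 1000 CPM. Relative to Col2a1 it had 0.345, 0.763 and 0.491 of the level per length, with replicate 2 highest. With replicate 2 left out, the mean CPM of Col10a1 was 3105, against 3823 ± 1293 over all 3 libraries.

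Among the proteoglycans, 35 genes and 1.83% ± 0.042 of counts, Acan (aggrecan, the large water-holding proteoglycan) had 6069, 6055 and 5768 CPM. Hapln1, the link protein that fixes aggrecan to hyaluronan, had 2848, 2866 and 2570 CPM. Acan was 1.41, 1.40 and 1.49 times Hapln1 per length. Small leucine-rich proteoglycans, which bind and space collagen fibrils, were somewhat lower per length. Ogn, Dcn, Lum and Bgn had 2157, 2032, 1934 and 1921 TPM on average, against 2420 for Acan, and each lay below Acan in every library. Aspn (198, 353 and 182 CPM) and Vcan (81.7, 190 and 78.5 CPM) differed most between libraries among the proteoglycans of at least 100 CPM, and both were highest in replicate 2. Without replicate 2 the mean of Aspn went from 245 to 190 CPM and that of Vcan from 117 to 80.1 CPM.

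The matrix glycoproteins were 169 genes with 7.74% ± 0.135 of counts, and Fn1, Sparc and Ibsp made up 45% of that. Thbs1, a thrombospondin, had 9659, 7910 and 8369 CPM. Comp, a pentameric thrombospondin family protein of cartilage, had 3009, 2762 and 3057 CPM. Cnmd (chondromodulin, an inhibitor of vessel growth in cartilage) had 839, 664 and 688 CPM. Replicate 1 was the highest for Thbs1 and Cnmd. Enzymes and inhibitors added 1.78% ± 0.021. Lox, which cross-links collagen, had 3132, 2789 and 3052 CPM, and Timp3, a metalloproteinase inhibitor bound to matrix, had 3188, 2723 and 3025 CPM. Mmp13, the collagenase of hypertrophic cartilage, had 702, 897 and 1027 CPM. The cross-linking enzyme Loxl4 had 736, 1183 and 919 CPM, and its libraries were farther apart than those of Lox.

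Secreted signalling proteins, 266 genes, took 1.47% ± 0.033 of counts and 2.22% ± 0.071 per length. Penk had 2644, 3108 and 2614 CPM and alone gave 18.9% of the group. Frzb, a secreted Wnt antagonist of cartilage, had 1890, 1718 and 1639 CPM. Vegfa, the vessel growth factor of hypertrophic cartilage, had 1098, 1025 and 1149 CPM, and the growth factor Igf2 had 1171, 1012 and 1025 CPM. In these 4 genes the highest library exceeded the lowest by 1.19-fold or less. Igf1 did not, with 89.2, 228 and 81.4 CPM.

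**Figure D3:**
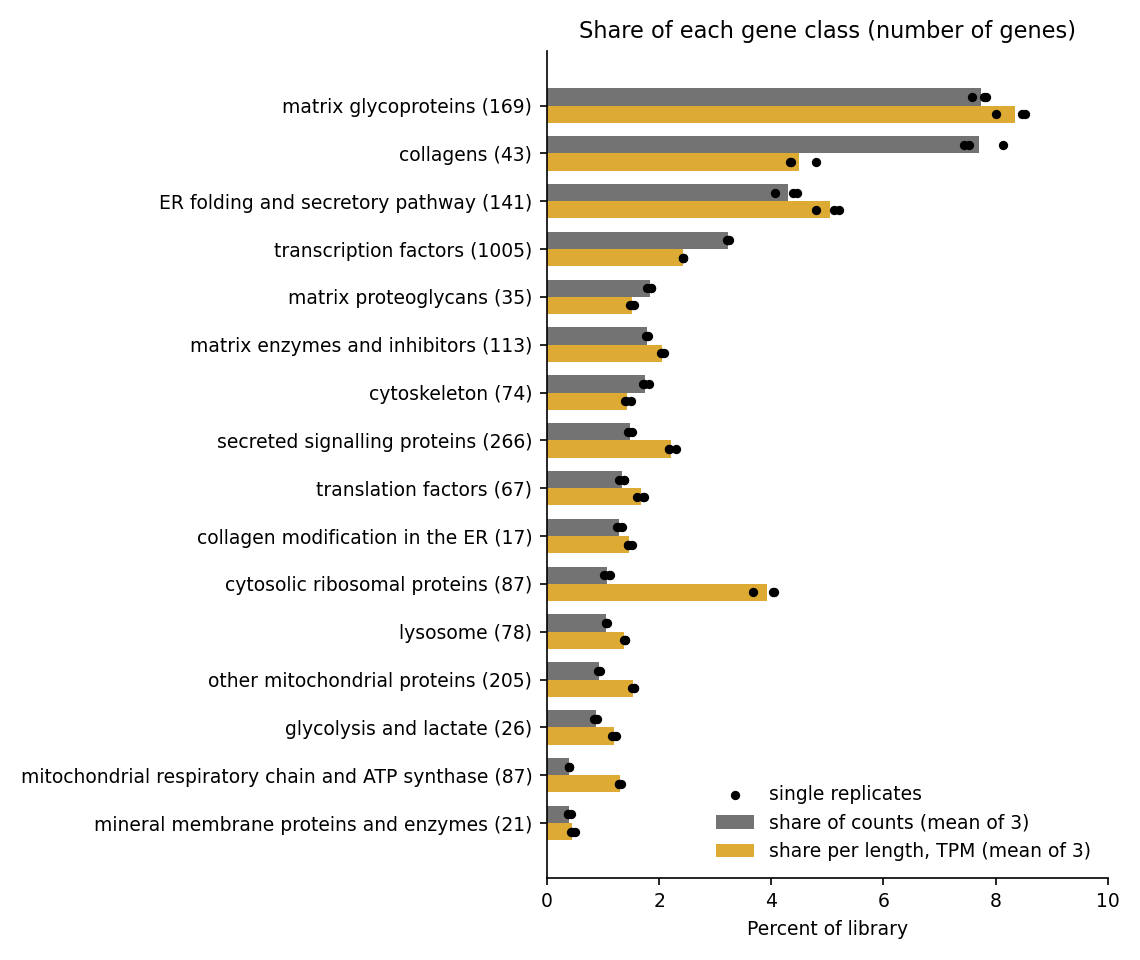
Share of all counts (grey bars) and share per length (yellow bars) held by each of 16 gene classes in the Week 3 pellets, in percent of the library; bars are means of 3 replicates, dots are single replicates, and numbers in parentheses are genes in the class. Collagens fall from 7.70 to 4.49% and ribosomal proteins rise from 1.08 to 3.92% when length is taken into account.

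Genes tied to mineral were few, and their share rested on 3 of them. The 24 mineral and bone matrix genes took 3.10%, 3.50% and 3.46% of counts (3.36% ± 0.220) and 5.24% ± 0.373 per length. Sparc, Ibsp and Spp1 made up 88.1% of this. Spp1 had 0.805, 0.687 and 0.858 times the level of Ibsp per length, and Ibsp had 13.2, 11.5 and 14.0 times that of Alpl. The 21 membrane proteins and enzymes that handle phosphate, pyrophosphate and matrix vesicles took 0.392% ± 0.027 of counts. Apart from Alpl, the gene with the most counts was Smpd3, a sphingomyelinase needed for skeletal mineral, with 533, 627 and 514 CPM. Anxa2 and Anxa5, annexins of matrix vesicles, had 906 ± 75.7 and 602 ± 33.7 TPM. Slc20a1, a phosphate importer, had 285, 211 and 289 CPM, with replicate 2 lowest. Enpp1, which makes the mineral inhibitor pyrophosphate, had 165, 158 and 165 CPM, and Ank, which exports pyrophosphate or its source, had 60.6, 69.3 and 62.9 CPM. Phospho1, a phosphatase of matrix vesicles, had 40.6, 49.3 and 39.0 CPM. Of the mineral membrane class, 11 of the 16 genes of at least 10 CPM were highest in replicate 2, again beside 34.6% of all genes.

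Genes of late bone cells ranged from clearly present to undetected. Dmp1, an acidic matrix protein of osteocytes, had 66.6, 51.3 and 56.5 CPM, and Phex, an endopeptidase of osteoblasts and osteocytes, had 78.9, 105 and 84.6 CPM. Per length they averaged 65.0 and 44.2 TPM, above the 25.7 TPM of the median gene of at least 1 CPM. Bglap, osteocalcin, had 4.94, 4.7 and 2.71 CPM, and its near-identical copy Bglap2 had 3.38, 3.94 and 1.84 CPM, so the division of reads between them is uncertain. Sost, sclerostin, had 1.13, 0.759 and 0.576 CPM. No count of Fgf23 was found in any library.

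The machinery that makes and exports this matrix was abundant. The 17 genes that hydroxylate, glycosylate and fold collagen in the ER took 1.28% ± 0.044 of counts, and all 17 exceeded 10 CPM. P4hb, both a subunit of prolyl 4-hydroxylase and a disulfide isomerase, had 3797, 3414 and 3583 CPM. Serpinh1, the collagen chaperone HSP47, had 2752, 2531 and 2628 CPM, and P4ha1, a catalytic prolyl hydroxylase subunit, had 1728, 1716 and 1664 CPM. P4hb was 3.10, 2.81 and 3.04 times P4ha1 per length. The 141 other ER folding and secretory genes took 4.39%, 4.07% and 4.45%, and every one reached 1 CPM. Their median level per length was 201 TPM, against 25.7 TPM over all genes of at least 1 CPM. Hspa5 (BiP) had 5722, 4243 and 6266 CPM, and Ero1a, the oxidase that feeds disulfide formation, had 2023, 1643 and 2054 CPM. Replicate 2 was lowest for both, and it was lowest for 91 of 139 genes of this class that had at least 10 CPM, beside 44.7% (4206) of all 9404 genes.

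Mitochondrial function took a small share. The nuclear genes for the respiratory chain and ATP synthase, 87 genes, held 0.402%, 0.396% and 0.393% of counts, and 205 other mitochondrial genes held 0.927% ± 0.016. Both classes together were 1.32% ± 0.018 of counts and 2.84% ± 0.032 per length, and 1 of the 292 genes, the mitochondrial chaperone Hspa9 (933, 872 and 971 CPM), was in the top 200. Genes encoded by mitochondrial DNA were not analysed here. By complex, complex I held 0.417% of the total per length, complex IV 0.320%, ATP synthase 0.30%, complex III 0.163% and complex II 0.063%. The number of genes differs between complexes, from 37 in complex I to 4 in complex II, and the median expressed gene had 96.2 TPM in complex I, 214 in complex IV and 184 in ATP synthase. Atp5b, the catalytic β subunit, had 601 ± 19.3 TPM, and Cox4i1, a subunit of cytochrome oxidase, also had 601 ± 10.6 TPM. Sdha, the flavoprotein of complex II, had 186, 184 and 188 CPM, with an SD of 1.14% of the mean. Cox4i2, the isoform of Cox4i1 linked to low oxygen, had 82.6, 81.7 and 73.8 CPM, or 337 ± 21.3 TPM.

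The 26 genes of glycolysis and lactate handling took 0.874% ± 0.030 of counts, and 6 of them were in the top 200. Aldoa (aldolase) had 1423, 1376 and 1409 CPM, Pkm (pyruvate kinase) had 1065, 1066 and 1024 CPM, and Ldha (lactate dehydrogenase) had 967, 969 and 939 CPM. The SD of these 3 genes was at most 2.25% of the mean. The 81 of 87 ribosomal protein genes that reached 1 CPM are short, so their class took 1.08% ± 0.059 of counts but 3.92% ± 0.212 per length. Many have near-identical copies elsewhere in the genome, which makes single values uncertain. Replicate 2 was lowest for 44 of the 58 ribosomal protein genes of at least 10 CPM, beside 44.7% of all genes. Lysosomal genes held 1.06% ± 0.008, led by Ctsd (cathepsin D) with 1708, 1787 and 1690 CPM.

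Translation factors, 67 genes, took 1.35% ± 0.049 of counts, and the elongation factors led them. Eef2, which moves the ribosome along the message, had 3087, 2678 and 3060 CPM, or 2930 ± 213 TPM. Eef1a1, which brings aminoacyl-tRNA to the ribosome, had 2800, 2542 and 2685 CPM, or 4617 ± 199 TPM. Replicate 2 was the lowest for both. The 74 cytoskeleton genes took 1.75% ± 0.063, and here replicate 2 was the highest for 44 of the 66 genes of at least 10 CPM, beside 34.6% of all genes. Ahnak, a giant scaffold protein at the cell cortex, had 3365, 3707 and 3368 CPM but only 594 ± 36.9 TPM, since its transcript is long. Actb (β-actin) had 1130, 1188 and 1105 CPM, or 1836 ± 78.1 TPM, and Vim (vimentin, the intermediate filament of mesenchymal cells) had 987, 852 and 870 CPM, or 1521 ± 118 TPM.

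Noncoding RNA of the RefSeq tables held 6.92, 6.85 and 7.04% of counts, and Malat1 alone held 4.25%. A noncoding RNA that was given no gene name had 5323, 6364 and 4921 CPM, more than Neat1 in every library. Neat1, the noncoding RNA that scaffolds nuclear paraspeckles, had 1831, 1662 and 2009 CPM, or 1778 TPM on average. Malat1 and Neat1 are RNAs of the nucleus. Both were highest in replicate 3 and lowest in replicate 2, where 44.7% of all 9404 genes of at least 10 CPM were also lowest. The libraries differed by 1.06-fold at most for Malat1.

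Transcription factors were many, and their median level per length was 15.3 TPM over those of at least 1 CPM, against 25.7 TPM over all such genes. Of 1005 genes listed, 788 reached 1 CPM and 69 had no count, and together they took 3.22%, 3.25% and 3.21% of counts, or 3.23% ± 0.023. Per length the share was 2.43% ± 0.000859, the steadiest of the 16 classes. Zinc finger genes by name were 444 of them and held 1.13% of counts. Only 7 transcription factors were in the top 200. Peg3, an imprinted zinc finger gene, had 1079, 1264 and 1059 CPM, but 13.1% of its exonic bases overlap Peg3os, and the reads of such partners cannot be separated without strand. Hif1a, the oxygen-regulated factor that chondrocytes need in avascular cartilage, had 727, 779 and 731 CPM. Trps1, a GATA-type repressor active in growth plate, had 663, 774 and 626 CPM. Atf4, a stress-response activator required for bone and cartilage growth, had the highest level per length of all the transcription factors with 966 ± 56.9 TPM.

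The 43 factors with known roles in the skeleton took 0.401% ± 0.020 of counts. The factors that start hypertrophy and bone formation were present in every library. Mef2c had 322, 400 and 310 CPM, or 165 ± 24.5 TPM. Runx2 had 107, 136 and 118 CPM and its partner in bone formation Sp7 (osterix) had 84.4, 104 and 91.9 CPM. Sox9, the factor that maintains chondrocyte identity, had 79.4, 74.3 and 68.8 CPM. Per length Runx2 had 62.9 TPM, Sp7 98.8 TPM and Sox9 55.3 TPM on average, and Sox6, a partner of Sox9, had 77.5 TPM. Mef2c, Runx2 and Sp7 were all highest in replicate 2, the library in which Col10a1 was highest, and Sox9 was not; what part the make-up of that library has in this was not tested. Across the whole list 20 of 29 factors of at least 10 CPM were highest in replicate 2, beside 34.6% of all genes of that level. The factors Dlx6, Msx2 and Scx, which act in osteoblasts, limb and tendon, each averaged under 2 CPM, and per length Dlx6 had 3.65, Msx2 2.43 and Scx 5.25 TPM on average.

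The 200 genes with the most counts were not only matrix. By class, 45 were core matrix (15 collagens, 8 proteoglycans and 22 glycoproteins), 27 belonged to collagen modification, ER folding or secretion, 9 to the cytoskeleton, 8 to matrix enzymes, 6 to glycolysis, 6 to ribosomal proteins and 7 to transcription factors. In counts, however, core matrix held 42.9% of what the 200 genes held together. A further 75 of the 200 fell in no class and held 11.9% of all counts. Besides Malat1, Bsg and 2 accessions without a gene name (5536 and 5392 CPM on average), the highest of these by counts were Ccdc80 (3133, 3123 and 3045 CPM), a secreted protein, the ubiquitin ligase Nedd4 (2169, 2291 and 2079 CPM) and the endocytic receptor Lrp1 (2039, 2153 and 2080 CPM). The 200 genes were longer than others, with a median exonic length of 4088 bases and 13 exons, against 2947 bases and 9 exons for all genes of at least 1 CPM. Since counts grow with length, this follows in part from the ranking. They held 31.2% of the total per length. Of them 8 were noncoding, and none differed by more than 2-fold between libraries. No gene on the mitochondrial chromosome was among the 13519 genes of at least 1 CPM. Its absence from the 200 therefore says nothing about the level of mitochondrial transcripts.

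Spread between the replicates was small for most genes. The median SD was 4.21% of the mean in the 1938 genes of at least 100 CPM, where counting error alone would give 1.83%. Without replicate 2 the median was 2.0%. It was 13.6% in the 4115 genes between 1 and 10 CPM, where counting error gives 12.1%. In 21 genes of at least 100 CPM, a set picked for its spread, the highest library exceeded the lowest by more than 1.5-fold. Replicate 2, the library that stood apart, was the highest in 17 of these, beside 34.6% of all genes of at least 10 CPM. The widest was Igf1, with an SD of 62.1% of its mean, and its mean of 133 CPM became 85.3 CPM without replicate 2. Scd1, a desaturase that makes unsaturated fat, had 170, 522 and 233 CPM, and a mean of 308 CPM that became 201 CPM without replicate 2. Postn (periostin), a matrix protein of periosteum, had 265, 516 and 301 CPM, and its mean of 361 CPM became 283 CPM without replicate 2. Replicate 2 was the highest for all 3. The secreted chitinase-like protein Chil1 went another way, with 313, 194 and 537 CPM, and A2m, a protease inhibitor, had 148, 73.8 and 110 CPM. In both of these replicate 2 was the lowest.

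**Figure D4:**
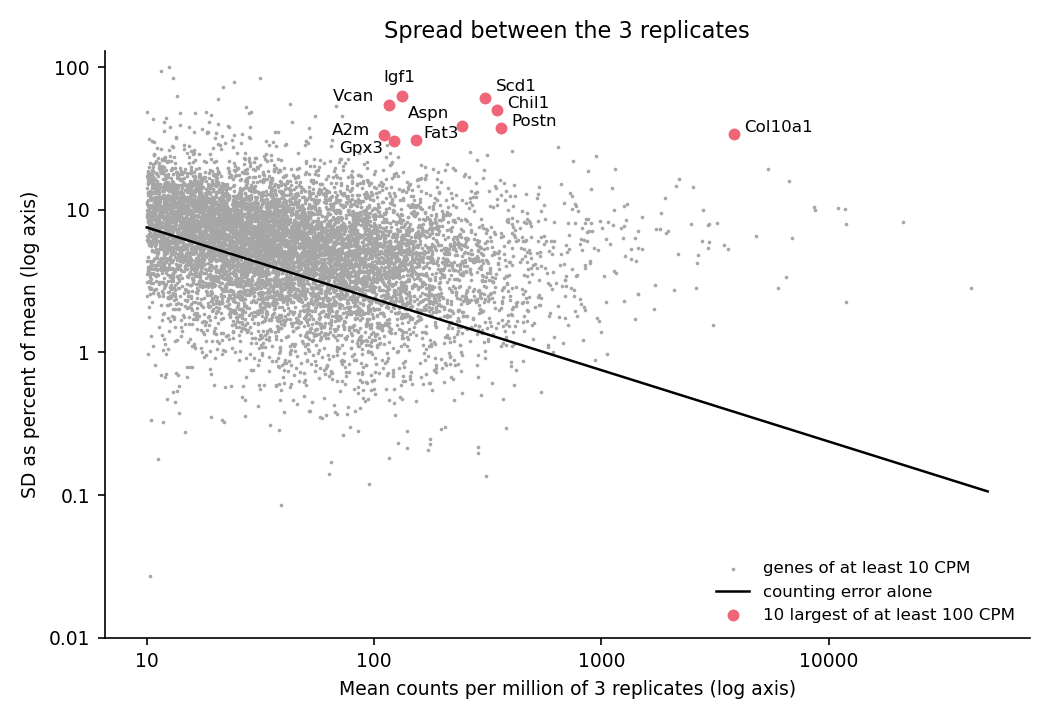
SD between the 3 Week 3 replicates as percent of the mean (vertical log axis) against mean CPM (horizontal log axis) for genes of at least 10 CPM; the black line is the spread that counting error alone gives, and red points are the 10 genes with the largest spread among those of at least 100 CPM. Most genes above 100 CPM lie over the line, and Col10a1 is the only red point above 1000 CPM.

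Markers of other cell types were measured beside these values. In bulk RNA, fewer cells of a type and less RNA per cell cannot be told apart. The 12 adipocyte genes summed to 113, 313 and 143 CPM. Replicate 2 was the highest for all 12, beside 34.6% of all 9404 genes of at least 10 CPM, a level that 4 of the 12 reached. Adipoq, the fat cell hormone adiponectin, had 2.31, 19.5 and 5.13 CPM. Plin1, the coat protein of fat droplets, had 0.438, 6.73 and 1.44 CPM, and Fabp4, a fatty acid carrier, had 10.7, 46.1 and 16.0 CPM. Lep and Retn had at most 14 counts in any library. The list ran from 0.0113% to 0.0313% of counts, so it was small in every library; its part in the higher Igf1, Scd1 and Postn of replicate 2 was not tested. The 12 macrophage and leukocyte genes measured of 13 listed summed to 69.2, 32.4 and 14.9 CPM. Lyz2 (lysozyme), the largest of them, had 25.1, 10.9 and 3.34 CPM, and replicate 1 was the highest.

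Lists of other types differed in how far their members were detected. The 8 endothelial genes summed to 8.19, 7.99 and 6.74 CPM, and the defining genes Cdh5 and Emcn were at or near 0. Of 7 lymphocyte genes 5 had no count in any library. Haemoglobin genes had at most 1 count. In the same erythroid list Alas2 had 10.5, 10.4 and 10.8 CPM and made up 98.9% of the sum. The osteoclast list summed to 235, 260 and 255 CPM, but Ctsk, which chondrocytes and fibroblasts also express, made up 77.0% of it. Itgb3, an integrin subunit, had 49.5, 55.0 and 54.4 CPM, while Acp5 had 3.31, 2.68 and 2.71 CPM and Calcr had no count. Of fibroblast genes Col3a1 and Dcn, both also made by chondrocytes in culture, carried most of the summed 9739, 11381 and 10159 CPM, whereas Pi16 and Dpt were under 5 CPM in every library. In the same list the growth factor receptor Pdgfra had 255, 332 and 258 CPM, the surface protease Fap had 149, 163 and 163 CPM, and Thy1 had 23.0, 40.8 and 21.5 CPM. The 8 smooth muscle and pericyte genes summed to 752, 818 and 731 CPM, of which the membrane proteoglycan Cspg4 made up 64.0%. Pdgfrb had 141, 165 and 142 CPM and Acta2 69.0, 110 and 78.8 CPM, but Rgs5 and Myh11 were under 1 CPM. Among genes of at least 10 CPM, replicate 2 was the highest for 3 of 5 in the fibroblast list. It was the highest for 3 of 4 in the smooth muscle and pericyte list, beside 34.6% of all genes of that level. The 7 neural and Schwann genes summed to 254, 252 and 253 CPM, and Ncam1, an adhesion molecule, made up 70.6% of that, while Sox10 was near 0. The 7 joint surface and synovial lining genes summed to 240, 237 and 248 CPM. Clu had 88.7, 84.2 and 94.8 CPM, Cilp 63.0, 71.3 and 69.3 CPM and Erg 36.8, 37.5 and 34.2 CPM. Prg4 (lubricin) had 22.6, 20.3 and 23.9 CPM and Gdf5 had 25.8, 20.2 and 23.1 CPM, or 16.1 and 30.7 TPM on average. Tppp3 and Htra4 averaged 2.16 and 0.781 CPM.

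**Figure D5:**
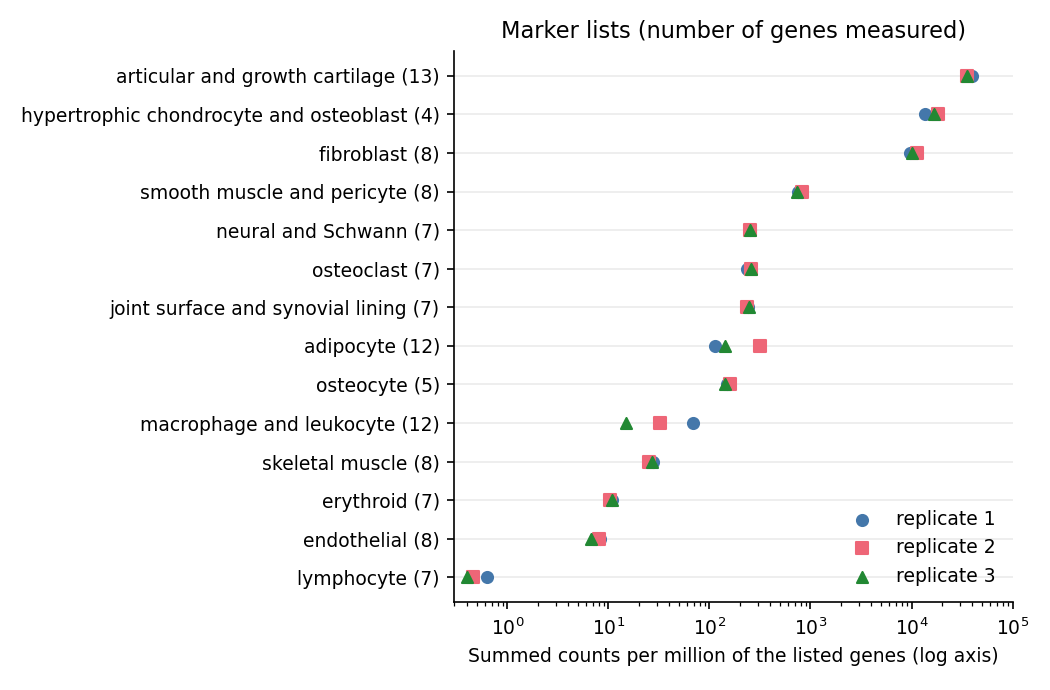
Summed CPM (log axis) of 14 marker lists in each Week 3 replicate, with the number of genes measured in each list. The cartilage list holds at least 35442 and the hypertrophy list at least 13642 CPM in every replicate (per length they held 2.40 and 2.28% of the total on average), the adipocyte list reaches 313 CPM in replicate 2, and the macrophage list runs from 14.9 to 69.2 CPM.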

How the data were processed

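RNA-seq of the 3 Week 3 pellet libraries was used. Libraries were poly A selected and primed with random hexamers, with no strand marking described, per the labels' protocols. The authors deposited raw counts for each RefSeq transcript. Base calls came from CASAVA 2.17, reads were adapter trimmed, aligned to mm10 with STAR and counted with featureCounts, per the submitters' processing notes and the series description. The sources used here do not give the versions of STAR and featureCounts or how strand and reads with several hits were treated.

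Each table held 30048 accessions, of which all but 394 could be given a gene from RefSeq (GRCm38.p6) and GENCODE. The 394 held 2.13, 2.23 and 2.15% of counts. They were kept without names and in no class, and 4 of them fell in the top 200. Reads were shared between transcripts: where a gene had at least 2 with 100 counts or more (2863 genes), the lowest held a median 0.980 of the highest. The transcript with the highest total therefore stood for its gene. CPM used the total over 23575 genes. TPM was computed from exonic length for the 23014 genes that had one. Gene totals of 15988800 to 19775300 counts set a floor (3 counts) of 0.152 to 0.188 CPM. No pair of libraries had identical values. Replicates 1 and 3 differed by a chi-square of 3.73 per gene, more than sampling noise. That does not show whether they were separate isolations, and each library was counted as a replicate by its label.

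Genes fell into 16 classes by the first list that held them, with 8 overlapping lists and 14 marker lists. Members and lists were chosen with earlier results of these data known. Ratios between genes and promoter motifs were added after the levels had been seen. Genes named in the text follow a rule: the 30 with the most counts, the 5 highest of each list, all markers, the 15 transcription factors highest per length, the 10 widest spreads of at least 100 CPM and the 5 highest in no class. Other genes named (Bglap, Bglap2, Mmp13, Slc20a1, Enpp1, Ank, Phospho1, Runx2, Sp7, Dlx6, Msx2, Scx, Chd4, Neat1, Mir675, Rpph1, Rmrp, Peg3os, type VI collagen chains and those with a motif match) were chosen for their role or place after their values were seen. Normalisation factors and dispersion came from edgeR 4.0.16 and DESeq2 1.42.0 in R 4.3.3, and other steps ran in Python 3.11.15 with pandas 2.3.3. The spread statistics were tested on simulated data. Alternatives were other scalings (TMM, DESeq2 size factors, level per length), other ways to collapse transcripts, filters and leaving out each library. A library total over all transcript rows was added after the data had been seen. No test between groups was made.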

Additional observations from a re-analysis of the deposited data

How the results depend on the processing

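No paired analysis was possible because the results come from no test and from 1 group. Depth limits genes under 10 CPM, where counting error is most of the spread. The median spread of genes of at least 100 CPM ran from 2.0 to 4.25% as single libraries were left out, lowest without replicate 2. Leaving out single libraries gave shares of 20.2 to 20.7% for secreted genes, 17.0 to 17.4% for core matrix, 3.28 to 3.48% for mineral and bone matrix, 1.32 to 1.33% for mitochondrial function, 5.52 to 5.72% for secretory machinery, 37.1 to 37.3% for the top 200 and 3.21 to 3.24% for transcription factors. Between 13483 and 13537 genes then averaged 1 CPM.

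With all transcripts of a gene summed, the share of secreted genes was 19.3%, of core matrix 16.1%, of mineral and bone matrix 4.41%, of mitochondrial function 1.17%, of the top 200 38.2% and of transcription factors 3.66%. Per length, the same shares were 18.6, 14.3, 5.24, 2.84, 36.9 and 2.43%, and secretory machinery was 6.51%. The top 200 were drawn anew under each setting. Without the accessions that have no name, mitochondrial function was 1.35%, the top 200 36.9% and transcription factors 3.30%. With DESeq2 size factors the top 200 held 37.0%. The mean of all transcripts, TMM and a minimum of 10 counts in every library moved none of these shares by more than 1 SD. An alternative chosen after seeing the data divided by the total over all transcript rows. It gave 15.0% for secreted genes, 12.6% for core matrix, 2.45% for mineral and bone matrix, 0.966% for mitochondrial function, 4.07% for secretory machinery, 27.1% for the top 200 and 2.35% for transcription factors. By construction all levels fall together, to between 0.727 and 0.731 of their value for the named genes, since that total counts a read once for each transcript it was assigned to while 1 transcript stands for a gene. With it 13068 genes averaged 1 CPM.

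Of 235 named genes, 11, 16 and 4 had a mean that moved by over 1.5-fold without replicate 1, 2 and 3. Without replicate 2 they included Scd1 and Igf1, whose means are given above. The others were markers that averaged 24.2 CPM (Fabp4) or less, such as Lyz2, whose 13.1 CPM became 7.11 CPM without replicate 1.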
